A study of Mus musculus with 16 samples.

Results

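The genes described here are those of MHC class I antigen presentation: B2m, H2-K1, H2-D1, Tap1, Tap2, Tapbp, Psmb8 and Psmb9. They were measured by 25 probe sets, taken as every probe set that the platform annotation assigns to exactly 1 gene symbol where that symbol is one of these 8. The array holds 45101 probe sets, and 34945 of them carry exactly 1 gene symbol, for 18193 genes. B2m had 2 probe sets, H2-K1 4, H2-D1 9, Tap1 4, Tap2 1, Tapbp 2, Psmb8 2 and Psmb9 1. Another 3 probe sets, which name a gene of this list together with further genes, were left out.

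RNA of whole mouse striatum was hybridized to Affymetrix mouse expression arrays, with 4 biological replicates in each of 4 genotypes. R6/2 x DREAM+/- mice carry the R6/2 transgene and, by their label, 1 disrupted copy of the DREAM gene (Kcnip3), DREAM+/- mice carry the disrupted copy alone, R6/2 mice carry the transgene alone, and wild-type mice carry neither. All 4 groups are of B6xCBA strain. The R6/2 transgene encodes exon 1 of the human huntingtin gene carrying a long CAG repeat, driven by the human huntingtin promoter, and gives a model of Huntington's disease that keeps its own mouse huntingtin gene, and DREAM is a calcium-binding repressor of transcription. The crossed animals came from mating DREAM knockout with R6/2 mice. The sources used here do not state age, sex, pooling of animals or which part of Kcnip3 is deleted. The labels name striatal neurons as the cell type, whereas the RNA was extracted from whole striatum, so neurons, glia, vessels and any blood cells all contribute. In such bulk RNA a smaller number of cells of a type and less RNA per cell cannot be told apart.

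Class I molecules show peptides from inside the cell to CD8 T cells. The heavy chains H2-K1 and H2-D1 pair with the light chain beta-2 microglobulin, made by B2m. Peptides are cut by the proteasome, in which Psmb8 and Psmb9 replace constitutive catalytic subunits to form the immunoproteasome, are carried into the endoplasmic reticulum by the transporter Tap1 and Tap2, and are loaded with the help of tapasin, made by Tapbp. Interferons raise all of these genes. In the brain class I levels are low compared with lymphoid tissue, and both microglia and neurons can make the molecules.

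The stretches upstream of 3 genes with called changes (B2m, H2-K1 and H2-D1) and of 1 gene with none (Tap1) are shown because class I genes share short elements there. Tapbp, which also had a called change, is not shown. They are RefSeq sequences on GRCm38.p6, 5′ to 3′ on the strand of the gene. Capitals mark an interferon regulatory factor core (AANNGAAA), the NF-kappaB consensus, a cyclic AMP response core (TGACG) and a CCAAT box, each searched on both strands. The B2m stretch lies at chr2:122147517-122147647 on the plus strand, the H2-K1 stretch at chr17:34000357-34000487 on the minus strand, the H2-D1 stretch at chr17:35262904-35263054 on the plus strand and the Tap1 stretch at chr17:34187331-34187476 on the plus strand.
B2m: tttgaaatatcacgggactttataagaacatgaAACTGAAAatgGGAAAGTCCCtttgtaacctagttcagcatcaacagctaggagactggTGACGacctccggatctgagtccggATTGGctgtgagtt
H2-K1: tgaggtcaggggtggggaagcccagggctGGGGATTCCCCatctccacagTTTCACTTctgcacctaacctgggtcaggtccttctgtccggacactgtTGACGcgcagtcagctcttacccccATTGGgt
H2-D1: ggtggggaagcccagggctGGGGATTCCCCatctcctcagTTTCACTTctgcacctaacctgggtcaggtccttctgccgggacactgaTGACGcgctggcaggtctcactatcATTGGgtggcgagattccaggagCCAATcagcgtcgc
Tap1: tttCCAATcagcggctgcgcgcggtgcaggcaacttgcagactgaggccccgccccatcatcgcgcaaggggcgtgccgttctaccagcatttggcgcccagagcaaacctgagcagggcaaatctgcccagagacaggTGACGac

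A promoter sequence was found for 7 of the 8 genes, all but Tap2. In the 250 bases before the start, the interferon regulatory factor core was matched in 3 of the 7 (B2m, H2-K1 and H2-D1), against 21.3% of all 32851 promoters of the same length. The NF-kappaB consensus was matched in the same 3 of 7, against 7.25% of all promoters, and on both strands in overlapping positions in H2-K1 and H2-D1. The core TGACG was matched in 5 of 7 (17.8% of all promoters) and CCAAT in 6 of 7 (33.8%). A gamma-activated site (TTCNNNGAA) was matched in Psmb8 alone of the 7 (7.02% of all promoters). Tapbp, which also had a called change, held CCAAT alone of these motifs. Whether a match goes with a call was not tested. Within these 250 bases, the most similar stretch of H2-K1 and H2-D1 had 161 identical bases over 177 aligned positions, or 91.0%. The remaining bases lay outside that alignment. Tap1 and Psmb9 start 226 bases apart on opposite strands. A match describes these letters and is not a binding site.

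The probes do not fully separate H2-K1 from H2-D1. All 4 H2-K1 probe sets and 7 of the 9 H2-D1 probe sets carry the suffix x_at, which marks sets with probes that match more than 1 gene, so their signal cannot be assigned to 1 H2 gene with certainty. The 2 genes also differ in sequence between mouse strains, and the sources used here do not state the H2 alleles of these mice. Each probe set was therefore tested by itself. Of the 25 probe sets, 17 had a mean at or above 5.944 (log2), the 40th percentile of all probe sets, and 8 were dimmer.

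The arrays were alike in overall level, with medians of 6.54 to 6.58 (log2) and correlations between replicates of 0.9903 to 0.9980, and the number of arrays limits the precision. Kcnip3, the targeted gene, was lower in both DREAM+/- groups: its brighter probe set read 7.43 to 7.67 in R6/2 x DREAM+/- and 9.04 to 9.23 in R6/2, and 7.72 to 7.82 in DREAM+/- and 9.41 to 9.89 in wild type. The DREAM+/- level was 0.269-fold of wild type on this set and 0.13-fold on the dimmer set, and the R6/2 x DREAM+/- level was 0.341-fold and 0.166-fold of R6/2 (limma adjusted p of 8.64e-08 or lower in each). These levels are lower than 1 intact copy of 2 would leave if signal followed copy number. R6/2 arrays too were below wild-type arrays, by -0.56 (log2, limma adjusted p = 0.000775). Kcnip3 and B2m both lie on chromosome 2, while the other 7 genes lie on chromosome 17. R6/2 replicate 1 differed from the rest in the female transcript Xist, at 6.49 against 11.04 to 12.16, and was the highest in the Y-linked Eif2s3y, at 8.91. In the arrays with high Xist, Eif2s3y read 6.23 to 7.42 in R6/2 x DREAM+/-, 7.51 to 8.05 in DREAM+/-, 6.57 to 7.36 in R6/2 and 6.16 to 7.80 in wild type, and Y-linked Kdm5d read 4.94 to 6.06 in R6/2 x DREAM+/- and 6.31 to 6.72 in DREAM+/-. R6/2 x DREAM+/- replicate 3 lay at -37.9 on the third principal component against -6.14 to 17.7. Of 8 markers of medium spiny neurons, the main striatal cell type, all were above the brightness level, and 7 were lower in R6/2 than in wild type. Of all genes, 7.44% were lower there.

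B2m was the only gene with called changes in R6/2 against wild type on every probe set it has. The brighter probe set, 1452428_a_at, read 10.68, 10.90, 11.08 and 10.90 in R6/2 arrays and 10.42, 10.49, 10.48 and 10.43 in wild-type arrays (log2 level). All 4 R6/2 arrays lay above all 4 wild-type arrays. The difference was 0.44 on the log2 scale (95% interval 0.26 to 0.61), or 1.35-fold, with limma adjusted p = 0.00171.

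The second B2m probe set, 1449289_a_at, read 10.69, 11.01, 11.07 and 10.90 in R6/2 arrays and 10.44, 10.48, 10.44 and 10.55 in wild-type arrays. Again the groups did not overlap, and R6/2 replicate 1 was the lowest of its group on both probe sets. The difference was 0.44 (interval 0.24 to 0.64, limma adjusted p = 0.00491). Over the 16 arrays the 2 probe sets correlated at r = 0.90, and at 0.87 once each group's mean was removed, which is a description of arrays that share the same RNA.

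With the R6/2 transgene on the DREAM+/- background, B2m was higher on average but did not pass. The brighter probe set read 11.22, 11.11, 10.85 and 11.09 in R6/2 x DREAM+/- arrays and 10.88, 10.86, 10.77 and 10.74 in DREAM+/- arrays. The lowest R6/2 x DREAM+/- array, replicate 3, lay just under the 2 highest DREAM+/- arrays. The difference was 0.26 (interval 0.08 to 0.43, limma adjusted p = 0.0708), and it passed under 6 of 27 alternative settings. These were 1 probe set per gene, trend and robust variance, array weights, and leaving out R6/2 x DREAM+/- replicate 3, R6/2 replicate 1 or both. The second probe set had a difference of 0.27 (interval 0.07 to 0.47, adjusted p = 0.109), with 11.17, 10.91, 10.70 and 10.91 in R6/2 x DREAM+/- arrays and 10.84, 10.60, 10.61 and 10.57 in DREAM+/- arrays. It passed under 3 of 26 settings.

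Between DREAM genotypes, 1 of the 2 B2m probe sets passed, on the non-transgenic background. In DREAM+/- against wild type the brighter probe set was higher by 0.36 (interval 0.19 to 0.53, limma adjusted p = 0.0261), and the 4 DREAM+/- arrays all lay above the 4 wild-type arrays. This call was lost under 9 of 27 alternative settings, among them leaving out DREAM+/- replicate 1, 2 or 3 or wild-type replicate 1, 2 or 4 (adjusted p of 0.0544 to 0.0884). It was also lost with the replicate number as a block (adjusted p = 0.0534) and with the Eif2s3y level as a covariate (adjusted p = 0.051). With the mean of microglial markers as a covariate the adjusted p was 0.761, but that mean itself separated the DREAM genotypes. The second probe set was at 0.18 and did not pass (adjusted p = 0.43). The values for R6/2 x DREAM+/- against R6/2 were 0.18 (interval 0.01 to 0.35, adjusted p = 0.198) and 0.01 (interval -0.19 to 0.20, adjusted p = 0.985), and the groups overlapped on both probe sets.

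The brighter B2m probe set was also higher in R6/2 x DREAM+/- than in wild type, which differ in both alleles, by 0.61 (interval 0.44 to 0.78, limma adjusted p = 7.91e-05), or 1.53-fold, and the second by 0.45 (interval 0.25 to 0.64, adjusted p = 0.00382). On the brighter probe set the group means ran from high to low as R6/2 x DREAM+/- (11.07 ± 0.16), R6/2 (10.89 ± 0.16), DREAM+/- (10.81 ± 0.07) and wild type (10.46 ± 0.04; SD, n = 4 each). R6/2 and DREAM+/-, neighbours in this order, overlapped, as did R6/2 x DREAM+/- and R6/2.

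**Figure D1:**
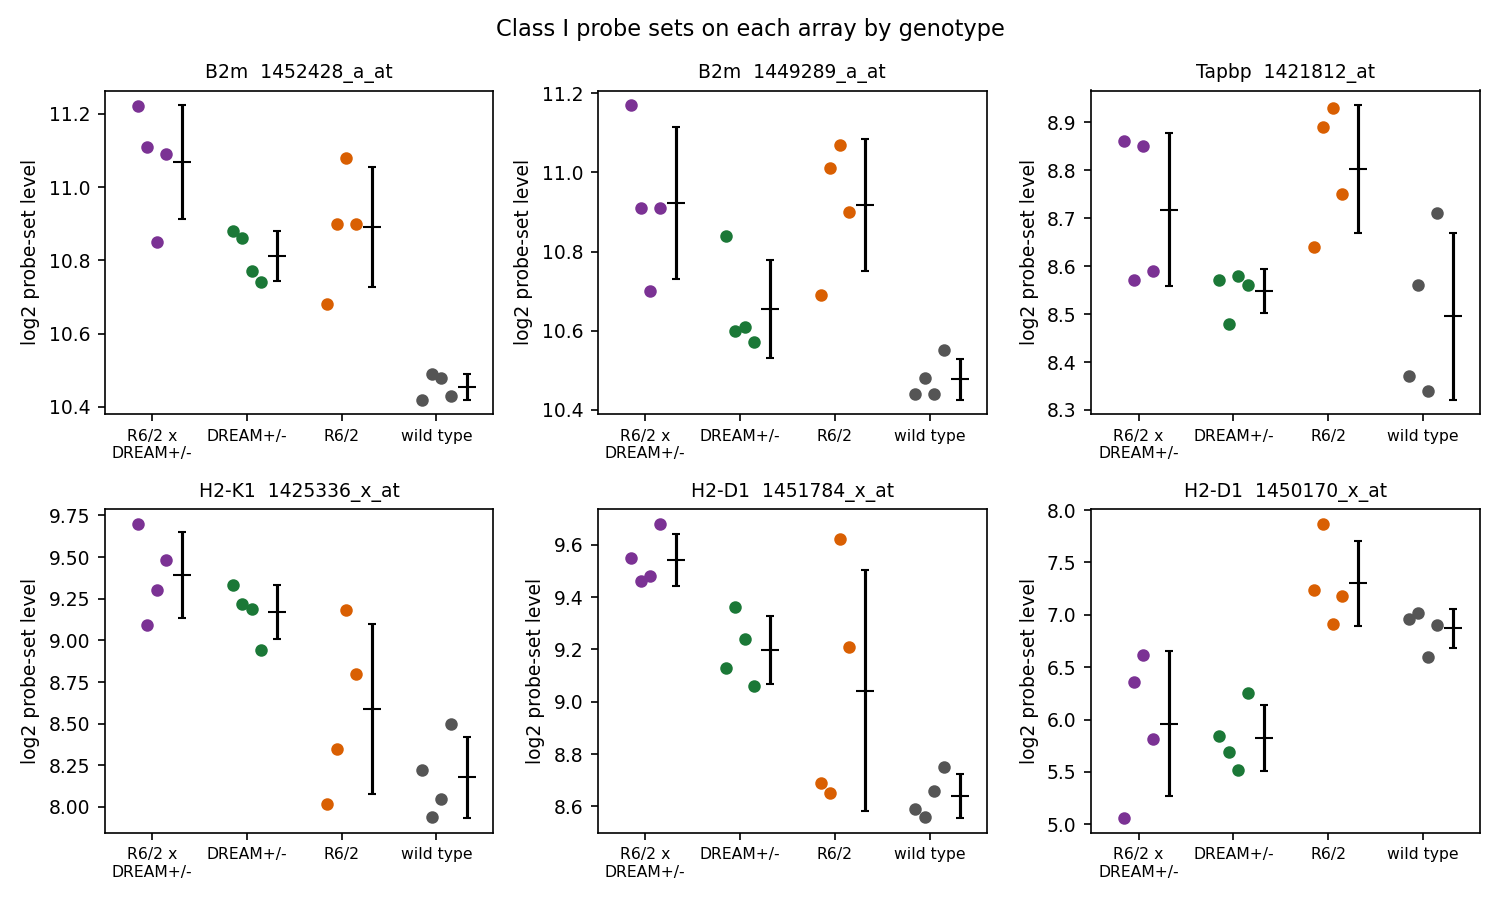
Log2 level (y axis) of 6 class I probe sets on each of the 16 arrays, by genotype (x axis). Points are arrays, and the bar beside each group is the mean with the SD over 4 arrays. Wild-type B2m arrays sit between 10.42 and 10.55, below all R6/2 arrays, while H2-K1 1425336_x_at and H2-D1 1451784_x_at spread widely within R6/2, and H2-D1 1450170_x_at runs the other way from the set beside it.

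Among the heavy chain probe sets, 1 H2-K1 set was called in DREAM+/- against wild type, 2 H2-K1 sets were higher and 1 H2-D1 set lower in R6/2 x DREAM+/- against R6/2, and none was called in the comparisons that differ in the transgene alone. H2-K1 1425336_x_at read 9.33, 9.22, 9.19 and 8.94 in DREAM+/- arrays and 8.22, 7.94, 8.05 and 8.50 in wild-type arrays. All 4 DREAM+/- arrays lay above all 4 wild-type arrays. The difference was 0.99 (log2, interval 0.58 to 1.41, limma adjusted p = 0.0117), a 1.99-fold higher signal, and the call held under 26 of 27 alternative settings. It was lost with the microglial covariate (0.78, adjusted p = 0.553).

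On the R6/2 background the same probe set read 9.70, 9.09, 9.30 and 9.48 in R6/2 x DREAM+/- arrays and 8.02, 8.35, 9.18 and 8.80 in R6/2 arrays. R6/2 replicate 3 overlapped the R6/2 x DREAM+/- arrays, while R6/2 replicates 1 and 2 lay near the wild-type arrays. The difference was 0.81 (interval 0.39 to 1.22, limma adjusted p = 0.0205). This call was lost without R6/2 replicate 1 (0.62, adjusted p = 0.0592), R6/2 replicate 2 (0.73, adjusted p = 0.0613) or R6/2 x DREAM+/- replicate 1 (0.70, adjusted p = 0.0612). The microglial covariate lost it too (0.56, adjusted p = 0.636). Against wild type, R6/2 x DREAM+/- was higher by 1.22 (interval 0.80 to 1.63, adjusted p = 0.000464), or 2.32-fold.

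H2-K1 1427746_x_at was higher in R6/2 x DREAM+/- than in R6/2. It read 7.15, 6.87, 7.07 and 7.15 in R6/2 x DREAM+/- arrays and 6.26, 6.14, 6.73 and 6.86 in R6/2 arrays. The groups did not overlap, but the lowest R6/2 x DREAM+/- array and R6/2 replicate 4 were nearly level. The difference was 0.56 (interval 0.27 to 0.85, limma adjusted p = 0.0196). This call was lost without R6/2 replicate 1 or 2 or without R6/2 x DREAM+/- replicate 1 or 4 (adjusted p of 0.0507 to 0.062). Leaving out R6/2 replicate 1 and R6/2 x DREAM+/- replicate 3 together (adjusted p = 0.0651) or adding the microglial covariate (adjusted p = 0.679) lost it too. In DREAM+/- against wild type it was at 0.41 (interval 0.12 to 0.70, adjusted p = 0.14), with no overlap between 6.82 to 7.14 in DREAM+/- arrays and 6.31 to 6.70 in wild-type arrays.

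H2-K1 1451931_x_at read 8.85, 8.88, 8.78 and 8.78 in DREAM+/- arrays and 8.14, 8.07, 8.33 and 8.44 in wild-type arrays. The groups were apart, but the difference of 0.58 did not pass (interval 0.22 to 0.94, limma adjusted p = 0.0947). The spread in this fit is estimated over all 16 arrays, and the 4 R6/2 arrays lay between 8.17 and 9.27. Without R6/2 replicate 3 it passed (adjusted p = 0.0127). It was higher in R6/2 x DREAM+/- than in wild type by 0.94 (interval 0.58 to 1.30, adjusted p = 0.00117). Against R6/2 the R6/2 x DREAM+/- mean was higher by 0.565, which did not pass (adjusted p = 0.0519) but passed under 5 of 26 alternative settings. The last H2-K1 probe set, 1450534_x_at, lay at 5.48 to 6.16 over all arrays, with a mean of 5.83 just below the brightness level, and passed in no comparison.

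On H2-D1 1425545_x_at, 1451784_x_at, 1451683_x_at and 1426324_at the group means ran from high to low as R6/2 x DREAM+/-, DREAM+/-, R6/2 and wild type. H2-D1 1425545_x_at read 9.85, 9.55, 9.45 and 9.68 in R6/2 x DREAM+/- arrays, 9.37, 9.38, 9.39 and 9.21 in DREAM+/- arrays, 8.06, 8.50, 9.72 and 9.25 in R6/2 arrays and 8.46, 8.63, 8.52 and 8.70 in wild-type arrays. DREAM+/- arrays all lay above wild-type arrays, while R6/2 arrays spread over both ranges, with replicate 3 highest and replicate 1 lowest. The R6/2 x DREAM+/- mean was higher than wild type by 1.06 (interval 0.56 to 1.55, limma adjusted p = 0.00553), and the differences of 0.76 in DREAM+/- against wild type (adjusted p = 0.117) and 0.75 in R6/2 x DREAM+/- against R6/2 (adjusted p = 0.0617) did not pass.

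H2-D1 1451784_x_at read 9.55, 9.46, 9.48 and 9.68 in R6/2 x DREAM+/- arrays, 9.13, 9.36, 9.24 and 9.06 in DREAM+/- arrays, 8.69, 8.65, 9.62 and 9.21 in R6/2 arrays and 8.59, 8.56, 8.66 and 8.75 in wild-type arrays. Again R6/2 replicates 3 and 4 were high and replicates 1 and 2 were near wild type. Compared with wild type, R6/2 x DREAM+/- was higher by 0.90 (interval 0.58 to 1.23, limma adjusted p = 0.000741), a call kept under all 26 alternative settings in which the probe set was tested. DREAM+/- was at 0.56 against wild type (adjusted p = 0.0726), and R6/2 x DREAM+/- at 0.50 against R6/2 (adjusted p = 0.0569).

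H2-D1 1451683_x_at had a lower mean of 6.17, still above the brightness level. It read 7.13, 6.63, 6.56 and 6.70 in R6/2 x DREAM+/- arrays and 5.73, 5.62, 5.50 and 5.96 in wild-type arrays, with no overlap. The difference was 1.05 (interval 0.49 to 1.62, limma adjusted p = 0.0121). Against R6/2 the R6/2 x DREAM+/- mean was higher by 0.87 and did not pass (adjusted p = 0.0547). H2-D1 1426324_at, one of the 2 H2-D1 sets without the x_at suffix, read 6.26, 6.12, 6.38 and 6.55 in R6/2 x DREAM+/- arrays and 5.88, 6.04, 5.97 and 6.07 in wild-type arrays. This too was apart, with a smaller difference of 0.34 (interval 0.16 to 0.51, adjusted p = 0.00986). Against R6/2 the R6/2 x DREAM+/- mean of this set was higher by 0.265 and did not pass (adjusted p = 0.0597).

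One H2-D1 probe set moved the opposite way. 1450170_x_at read 5.06, 6.36, 6.62 and 5.81 in R6/2 x DREAM+/- arrays and 7.24, 7.87, 6.91 and 7.18 in R6/2 arrays. All R6/2 x DREAM+/- arrays lay below all R6/2 arrays. Its signal was lower by 1.34 on the log2 scale (interval -1.90 to -0.77, limma adjusted p = 0.00683), and the call held under 25 of 26 alternative settings. The call was lost with the microglial covariate (-0.99, adjusted p = 0.515). Whether H2 sequence differences between strains play a part in the signals of these sets was not tested.

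1450170_x_at was also lower in R6/2 x DREAM+/- than in wild-type arrays, which read 6.96, 7.02, 6.60 and 6.90, by -0.91 (interval -1.47 to -0.34, limma adjusted p = 0.0282), with 1 R6/2 x DREAM+/- array inside the wild-type range. This call was lost under 7 of 26 settings, among them leaving out R6/2 x DREAM+/- replicate 1 (-0.61, adjusted p = 0.0883) or 4, or wild-type replicate 1, 2 or 4. The microglial covariate lost it too (-0.67, adjusted p = 0.328). In DREAM+/- arrays it read 5.84, 5.69, 5.52 and 6.25, all below the wild-type arrays, a difference of -1.05 that missed the threshold narrowly (interval -1.61 to -0.48, adjusted p = 0.0507) and passed under 10 of 26 settings. Across the 16 arrays it correlated with H2-K1 1425336_x_at at r = -0.75, and at -0.55 within groups, as a description.

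**Figure D2:**
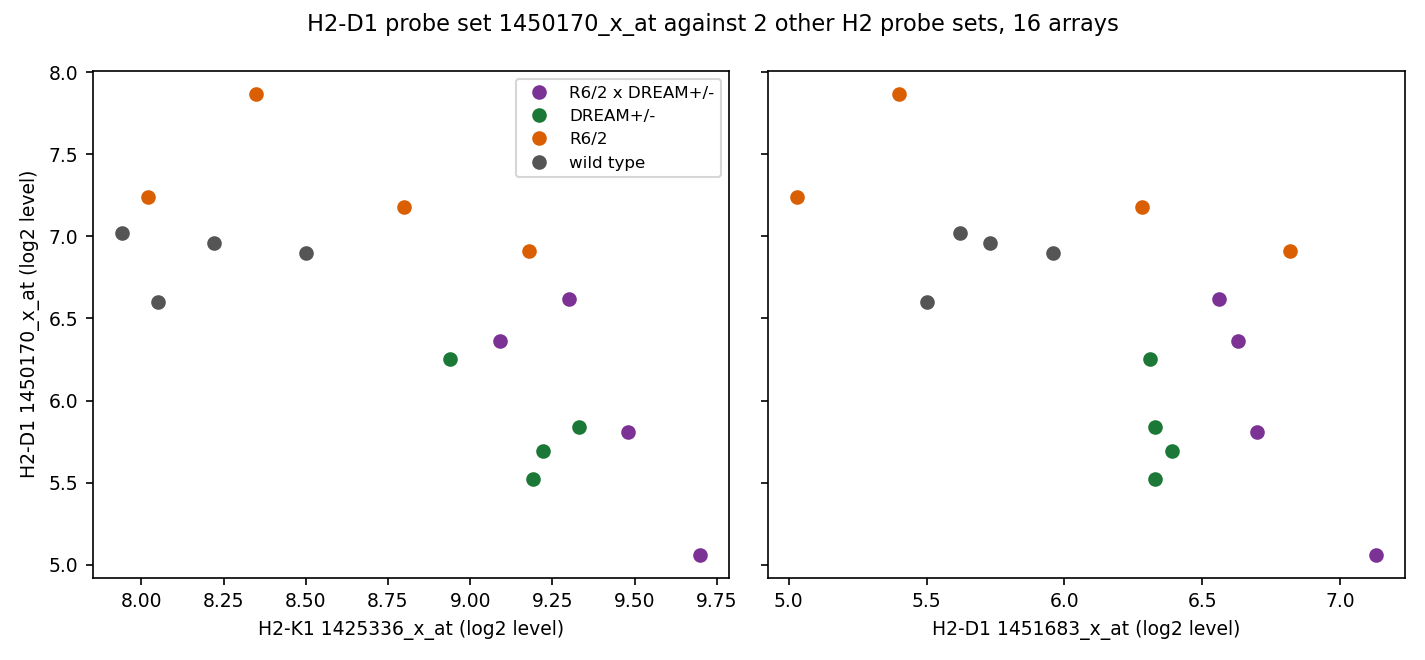
Log2 level of H2-D1 1450170_x_at (y axis) against H2-K1 1425336_x_at (left panel, x axis) and H2-D1 1451683_x_at (right panel, x axis) on the 16 arrays, coloured by genotype. Arrays high on the x axis tend to be low on the y axis: all arrays of both DREAM+/- groups lie at or below 6.62 on the y axis, and of the R6/2 and wild-type arrays 1, wild-type replicate 3 at 6.60, lies there too.

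No other H2-D1 set was called. 1452544_x_at (6.04 to 6.58 over all arrays), 1427651_x_at (5.16 to 5.71), 1425614_x_at (5.11 to 5.49) and 1451934_at (4.16 to 4.59) passed in no comparison, and all but the first were dim. Among the sets that rose, H2-K1 1425336_x_at correlated over the 16 arrays with H2-K1 1451931_x_at at r = 0.94 (0.89 within groups), with H2-D1 1425545_x_at at 0.94 (0.88), with 1451683_x_at at 0.93 (0.91) and with 1451784_x_at at 0.92 (0.83). Its correlation with B2m 1452428_a_at was 0.79 (0.64 within groups). These arrays share RNA, and the H2 sets may share target transcripts.

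In R6/2 against wild type no H2-K1 or H2-D1 probe set passed, with differences of -0.07 to 0.43. On H2-K1 1425336_x_at the R6/2 arrays spread the most, with an SD of 0.26 in R6/2 x DREAM+/-, 0.16 in DREAM+/-, 0.51 in R6/2 and 0.24 in wild type. R6/2 also had the largest SD on H2-K1 1451931_x_at (0.51) and 1427746_x_at (0.35). The same held for H2-D1 1425545_x_at (0.74), 1451784_x_at (0.46) and 1451683_x_at (0.82). Not every set did so. On H2-D1 1450170_x_at the SD was 0.69 in R6/2 x DREAM+/- and 0.41 in R6/2, and on 1426324_at it was 0.18 and 0.10. Without R6/2 replicate 1, the array that also stood apart in Xist, H2-K1 1425336_x_at was higher in R6/2 by 0.60 (limma adjusted p = 0.0395). Without R6/2 replicate 3, the highest R6/2 array on this set, the difference was 0.21 and did not pass. It passed under 2 of 27 alternative settings.

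**Figure D3:**
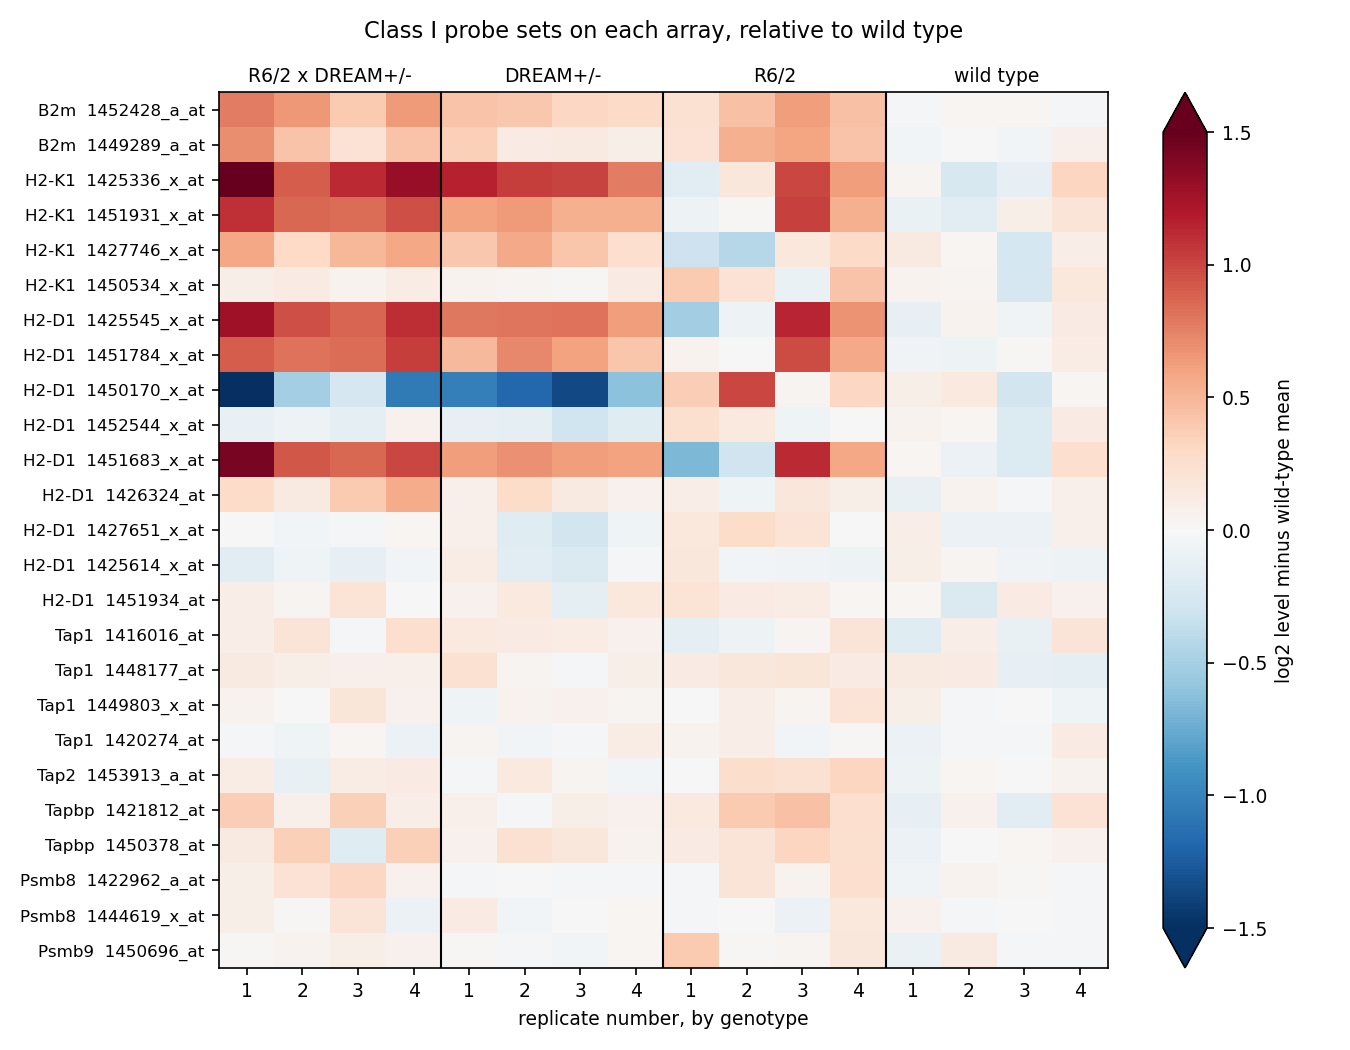
Colour gives the log2 level of each of the 25 probe sets (rows) on each array (columns, replicates 1 to 4 within a genotype) minus the wild-type mean, cut at 1.5 in either direction. H2-K1 1425336_x_at and H2-D1 1451784_x_at are red in both DREAM+/- groups and mixed within R6/2, with replicates 3 and 4 red and replicates 1 and 2 pale. The B2m rows are above the wild-type mean in all R6/2 arrays, but only faintly in replicate 1.

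Among the genes of peptide loading, tapasin alone had a called value. Tapbp 1421812_at read 8.64, 8.89, 8.93 and 8.75 in R6/2 arrays and 8.37, 8.56, 8.34 and 8.71 in wild-type arrays. The groups overlapped at R6/2 replicate 1 and wild-type replicate 4. The difference was 0.31 (interval 0.12 to 0.50, limma adjusted p = 0.0329), and the call was lost under 8 of 27 settings (adjusted p up to 0.103), among them leaving out R6/2 replicate 2, 3 or 4 or wild-type replicate 1 or 3 and the replicate block (adjusted p = 0.0558).

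The second Tapbp set, 1450378_at, read 7.35, 7.41, 7.54 and 7.46 in R6/2 arrays and 7.13, 7.22, 7.25 and 7.29 in wild-type arrays. Although these did not overlap, the difference of 0.22 did not pass (limma adjusted p = 0.149). Tap2, a subunit of the peptide transporter, read 6.92, 7.19, 7.15 and 7.24 in R6/2 arrays and 6.85, 6.95, 6.92 and 6.97 in wild-type arrays, a difference of 0.20 that did not pass (adjusted p = 0.0791) and that passed without R6/2 replicate 1. Its partner Tap1 passed on none of its 4 probe sets in any comparison. The brightest, 1416016_at, averaged 6.72 ± 0.15 in R6/2 and 6.71 ± 0.18 in wild type, and the other 3 were dim.

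The immunoproteasome subunits did not pass in any comparison. Psmb8 1422962_a_at read 6.59, 6.72, 6.81 and 6.57 in R6/2 x DREAM+/- arrays and 6.47, 6.51, 6.48 and 6.49 in DREAM+/- arrays. These groups did not overlap, but the difference of 0.19 missed the threshold (interval 0.05 to 0.32, limma adjusted p = 0.102). Psmb9 averaged 6.42 ± 0.17 in R6/2 and 6.27 ± 0.10 in wild type, with R6/2 replicate 1 the highest at 6.66. The second Psmb8 set, 1444619_x_at, was dim, at 4.66 to 4.95 over all arrays.

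The genes outside the list whose levels ran most like these were ranked by Pearson correlation over the 16 arrays, as a description. For B2m 1452428_a_at they were Pcyox1 (r = 0.922), Ddc (0.915), Erlec1 (0.895), Marchf1 (0.892) and Scarb2 (0.888), none of them on chromosome 2 or 17. For H2-K1 1425336_x_at they were Zfp811 (0.934), Rab6a (0.916), Slc25a27 (0.904), 4933439C10Rik (0.886) and Pgap2 (0.883). For H2-D1 1425545_x_at they were Zfp811 (0.877), Rab6a (0.868), Cacul1 (0.864), Irgm2 (0.862) and Taf11 (0.859). Zfp811, Slc25a27 and Taf11 lie on chromosome 17, which also holds H2-K1 and H2-D1.

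Counted over all 25 probe sets, R6/2 against wild type had 3 higher and 0 lower (both B2m sets and 1 Tapbp set), where 13.2% of all 34945 probe sets were called, 6.74% higher and 6.42% lower. The class I share was near that background, and 7 were called without R6/2 replicate 1. DREAM+/- against wild type had 2 higher and 0 lower (1 B2m set and 1 H2-K1 set), where 2.26% of all were called, 1.15% higher and 1.11% lower. That count was 1 without DREAM+/- replicate 1, 2 or 3 or wild-type replicate 1, 2 or 4, 4 without R6/2 replicate 2 and 5 without R6/2 replicate 3. For R6/2 x DREAM+/- against R6/2 there were 2 higher (both H2-K1) and 1 lower (H2-D1), with 7.76% of all called, 3.53% higher and 4.22% lower. This count was 1 without R6/2 x DREAM+/- replicate 1 or R6/2 replicate 1 or 2, 6 without R6/2 x DREAM+/- replicate 3 and 7 without R6/2 replicate 3.

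For R6/2 x DREAM+/- against DREAM+/- 0 of 25 were called by limma, with 6 at an unadjusted p under 0.05, where 6.93% of all were called, 2.91% higher and 4.01% lower. Without R6/2 x DREAM+/- replicate 3 there were 2, and without R6/2 replicate 1 there was 1. Against wild type, R6/2 x DREAM+/- had 9 higher and 1 lower, with 15.6% of all called, 7.11% higher and 8.50% lower. The test of whether the R6/2 effect differed between the DREAM backgrounds called 0 of the 25 with limma, and 0% of all probe sets. None of the 25 was at an unadjusted p under 0.05 there, so a difference between the backgrounds in any of these genes was not detected.

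The number of probe sets whose groups did not overlap was 3 of 25 in R6/2 against wild type (17.0% of all), 9 in DREAM+/- against wild type (9.21% of all) and 2 in R6/2 x DREAM+/- against R6/2 (12.8% of all). It was 5 in R6/2 x DREAM+/- against DREAM+/- (12.8% of all) and 10 in R6/2 x DREAM+/- against wild type (14.2% of all). The median difference over the 25 sets was 0.16 in R6/2 against wild type (0.03 over all probe sets), 0.06 in DREAM+/- against wild type (-0.02 over all), -0.02 in R6/2 x DREAM+/- against R6/2 (-0.03 over all), 0.10 in R6/2 x DREAM+/- against DREAM+/- (0.01 over all) and 0.13 in R6/2 x DREAM+/- against wild type (0 over all). Several of the sets measure the same gene, so they are not separate observations.

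**Figure D4:**
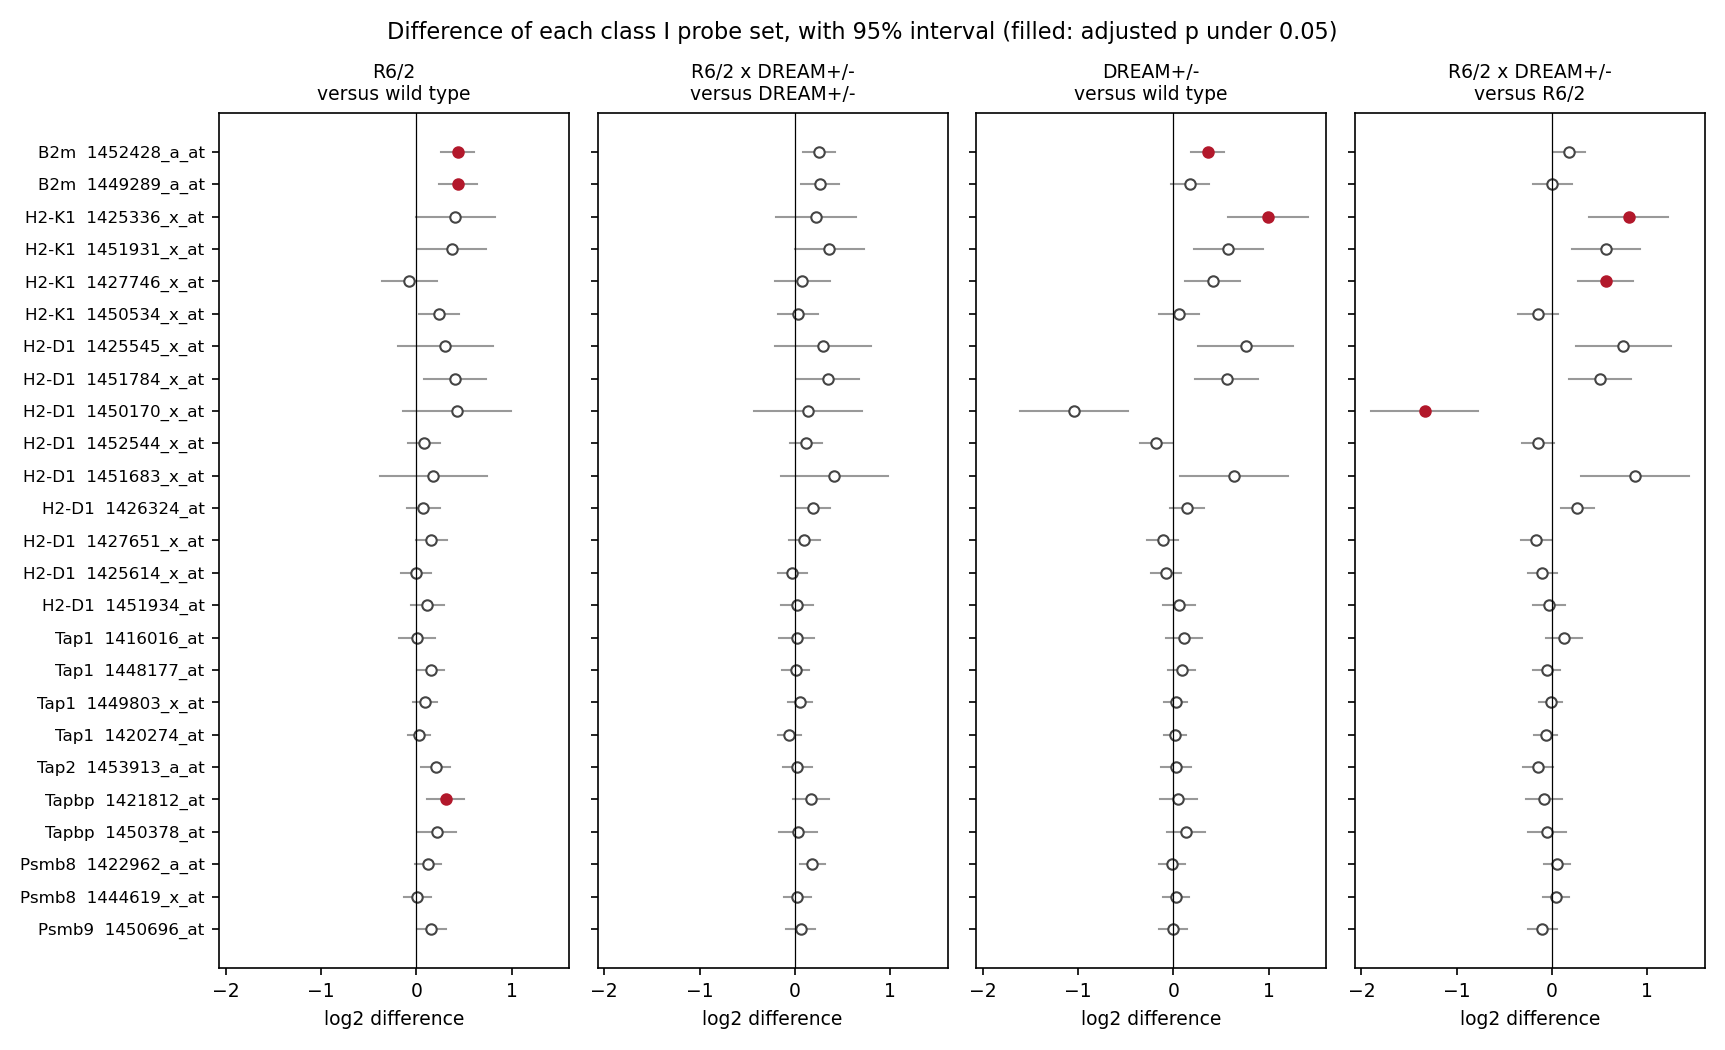
Log2 difference (x axis) of each of the 25 probe sets (rows) in 4 comparisons, with 95% intervals from limma. Filled points passed an adjusted p of 0.05: 3 in R6/2 against wild type, 0 in R6/2 x DREAM+/- against DREAM+/-, 2 in DREAM+/- against wild type and 3 in R6/2 x DREAM+/- against R6/2.

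Further genes of the pathway were counted on the brightest probe set of each. Interferon-induced genes, which interferon receptors switch on along with class I genes, rose with the transgene on both DREAM backgrounds. In R6/2 against wild type 14 of 19 were higher and 0 lower, where 8.22% of all genes were higher and 7.44% lower. Usp18, a protease that removes ISG15, rose by 1.15 (limma adjusted p = 1.72e-05), and Irgm1, an interferon-inducible GTPase, by 0.56 (adjusted p = 0.000129).

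The comparison of R6/2 x DREAM+/- with DREAM+/- shares no arrays with that one, and there 13 of 19 interferon-induced genes were higher and 0 lower (3.63% of all genes higher, 4.71% lower). Irgm1 rose by 0.47 (limma adjusted p = 0.00116) and Usp18 by 0.73 (adjusted p = 0.00178). With the DREAM genotype the count was 1 of 19 in DREAM+/- against wild type (0.929% of all genes higher, 1.17% lower) and 1 of 19 in R6/2 x DREAM+/- against R6/2 (2.91% higher, 4.73% lower). Both times the gene was Trim30a, higher by 0.83 (adjusted p = 0.00114) and by 1.15 (adjusted p = 3.89e-05).

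The mean level of the 19 genes was 7.20 to 7.40 in R6/2 x DREAM+/- arrays, 6.91 to 6.95 in DREAM+/- arrays, 7.06 to 7.43 in R6/2 arrays and 6.79 to 6.82 in wild-type arrays. R6/2 replicate 1 was the lowest and replicate 3 the highest R6/2 array, as they were on both B2m sets and on H2-K1 1425336_x_at and 1451931_x_at and H2-D1 1425545_x_at and 1451683_x_at, but not on the other H2 sets. Against wild type, 15 of 19 were higher in R6/2 x DREAM+/- (7.19% of all genes higher, 9.73% lower).

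**Figure D5:**
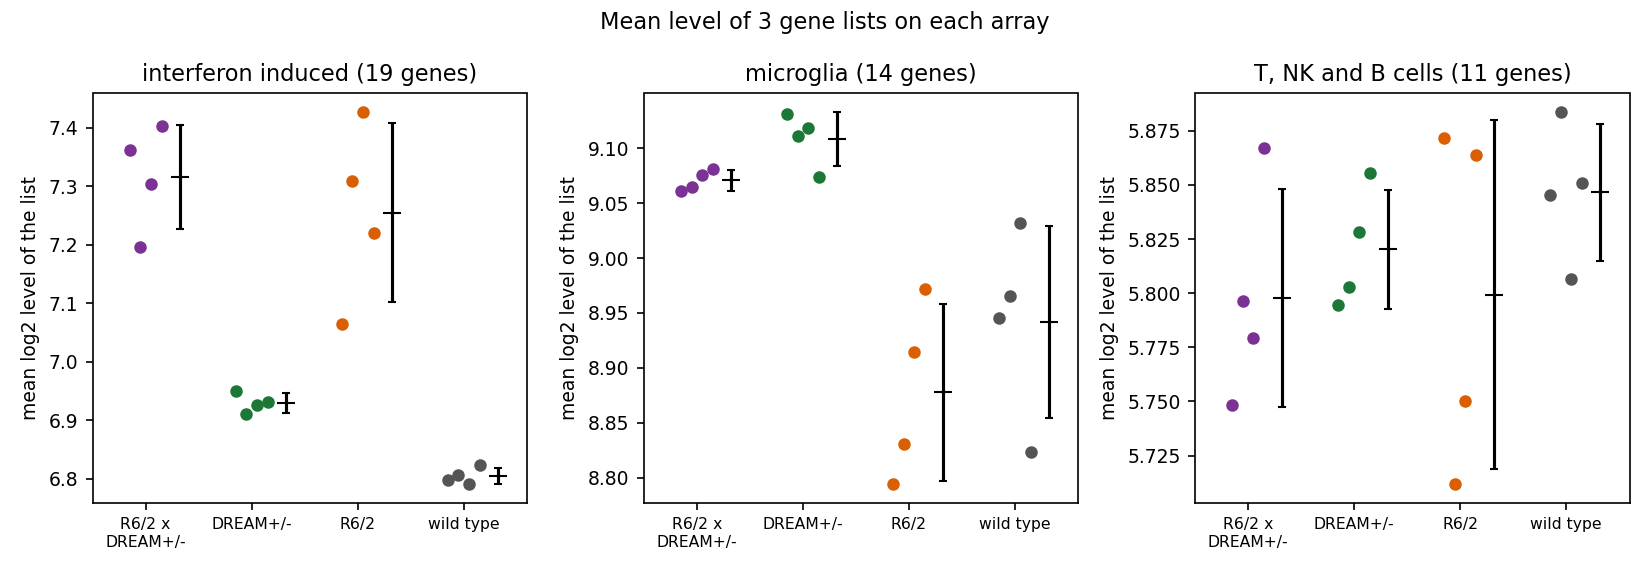
Mean log2 level (y axis) of 3 gene lists on each array by genotype (x axis), with the mean and SD over 4 arrays beside each group. Interferon-induced genes are high in both groups with the transgene, microglial genes lie at 9.06 or above in both DREAM+/- groups and at 9.03 or below in R6/2 and wild-type arrays, and markers of T, NK and B cells lie between 5.71 and 5.88 in all groups.

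Of 6 further proteasome genes, 2 were higher and 4 did not pass in each of the comparisons that differ in the transgene alone. Of all genes, 8.22% were higher in R6/2 against wild type and 3.63% in R6/2 x DREAM+/- against DREAM+/-. Psme1, a subunit of the interferon-inducible proteasome activator, rose by 0.68 in R6/2 against wild type (limma adjusted p = 3.62e-06) and by 0.48 in R6/2 x DREAM+/- against DREAM+/- (adjusted p = 0.000195). It was lower in R6/2 x DREAM+/- than in R6/2, by -0.32 (adjusted p = 0.00713). Psmb10, the remaining immunoproteasome subunit, rose by 0.34 in R6/2 against wild type (adjusted p = 0.00315) and by 0.26 in R6/2 x DREAM+/- against DREAM+/- (adjusted p = 0.0318). None of the 6 passed in DREAM+/- against wild type, and Psme1 alone passed in R6/2 x DREAM+/- against R6/2. In the latter, 4.73% of all genes were lower.

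Of 9 further loading and peptide trimming genes, 1 was higher and 0 lower in R6/2 against wild type: Tapbpl, a tapasin-related peptide editor, at 0.34 (limma adjusted p = 0.00398). That count is near the share of all genes, 8.22% higher and 7.44% lower. Against DREAM+/-, R6/2 x DREAM+/- also had 1 higher, the trimming peptidase Erap1 at 0.49 (adjusted p = 0.0201), a dim gene here with means of 5.81 in R6/2 x DREAM+/- and 5.32 in DREAM+/-. Sec61a1, of the protein translocation channel, was higher in R6/2 x DREAM+/- than in R6/2, by 0.21 (adjusted p = 0.0401), and 0 of 9 passed in DREAM+/- against wild type. Of all genes, 3.63% were higher in R6/2 x DREAM+/- against DREAM+/- and 2.91% in R6/2 x DREAM+/- against R6/2.

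Of 16 regulators of class I transcription, 5 were higher and 1 lower in R6/2 against wild type, where 8.22% of all genes were higher and 7.44% lower. Irf9, the DNA-binding part of the type I interferon complex, rose by 0.36 (limma adjusted p = 0.00804), and Nlrc5, the class I transactivator, by 0.26 at a dim level (adjusted p = 0.0215). The kinase Tyk2 rose by 0.24 (adjusted p = 0.0268) and Jak2 fell by 0.26 (adjusted p = 0.0073). Irf9 alone was higher in R6/2 x DREAM+/- against DREAM+/-, by 0.34 (adjusted p = 0.0184), where 3.63% of all genes were higher. In DREAM+/- against wild type Stat2, its partner in that complex, was lower by -0.24 (adjusted p = 0.0162), and in R6/2 x DREAM+/- against R6/2 Ifngr2, of the interferon gamma receptor, was higher by 0.38 (adjusted p = 0.0182). Of all genes, 1.17% were lower in the first of these comparisons and 2.91% higher in the second.

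Of 9 nonclassical and class I-like genes, Cd1d1 was higher in R6/2 against wild type (0.27, limma adjusted p = 0.035) and H2-Bl lower in DREAM+/- against wild type (-0.29, adjusted p = 0.041), with no other calls in those comparisons. Of all genes, 8.22% were higher in the first and 1.17% lower in the second. None of the 9 passed in R6/2 x DREAM+/- against R6/2 or against DREAM+/-. Of 6 receptors that bind class I molecules, 0 passed in any comparison, and 4 of them were dim. MHC class II genes had 1 higher (Cd74, 0.32, adjusted p = 0.0195) and 1 lower (H2-DMa, -0.40, adjusted p = 0.00542) of 6 in R6/2 against wild type. There 8.22% of all genes were higher and 7.44% lower.

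Markers of the cells that could carry these transcripts were set beside them. The mean level of 14 microglial markers was 9.06 to 9.08 in R6/2 x DREAM+/- arrays, 9.07 to 9.13 in DREAM+/- arrays, 8.79 to 8.97 in R6/2 arrays and 8.82 to 9.03 in wild-type arrays, so every array of both DREAM+/- groups lay above every R6/2 and wild-type array, a separation seen on none of the 25 class I probe sets. In DREAM+/- against wild type 1 of 14 was higher and 0 lower (C1qb, a complement subunit, by 0.41, limma adjusted p = 0.00271). With R6/2 as the comparison, R6/2 x DREAM+/- had 4 of 14 higher and 0 lower, C1qb by 0.55 and Trem2, a microglial receptor, by 0.30. Of all genes, 0.929% were higher and 1.17% lower in DREAM+/- against wild type. For R6/2 x DREAM+/- against R6/2 these shares were 2.91% and 4.73%.

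In R6/2 against wild type, where B2m rose, 1 microglial marker of 14 was higher (Ctss, 0.30) and 1 lower (Cd68, -0.31). These counts are near the shares of all genes, 8.22% higher and 7.44% lower. With the microglial mean as a covariate, B2m stayed higher in R6/2 against wild type on both probe sets (0.48 and 0.45, adjusted p = 0.00195 and 0.0118). No class I probe set then passed in DREAM+/- against wild type or in R6/2 x DREAM+/- against R6/2, while the calls over all 34945 probe sets fell to 106 and 103 with the covariate, against 790 and 2711 without it. Because the microglial mean separated the DREAM genotypes on every array, this covariate and DREAM genotype cannot be told apart in those comparisons. The part of the microglial markers in the B2m and H2 differences was not tested.

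Of 11 markers of T, NK and B cells, 3 were above the brightness level. Their mean was 5.75 to 5.87 in R6/2 x DREAM+/- arrays, 5.79 to 5.86 in DREAM+/- arrays, 5.71 to 5.87 in R6/2 arrays and 5.81 to 5.88 in wild-type arrays. Cd4 alone of the 11 had called changes, lower by -0.86 in R6/2 against wild type and by -0.60 in R6/2 x DREAM+/- against DREAM+/- (limma adjusted p = 5.07e-06 and 0.000279). In these comparisons 7.44% and 4.71% of all genes were lower. Cd3d, Cd3g and Cd79a, which define T and B cells, averaged 5.89, 4.39 and 5.93 in R6/2 arrays and passed in no comparison with wild type.

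Of 9 endothelial markers, Kdr, a receptor for vascular endothelial growth factor, was higher in R6/2 x DREAM+/- against R6/2 by 0.20 (limma adjusted p = 0.042) and against wild type by 0.31 (adjusted p = 0.00149), comparisons in which H2 sets were called. No other endothelial marker passed there, and 0 of 9 passed in R6/2 against wild type, in DREAM+/- against wild type or in R6/2 x DREAM+/- against DREAM+/-. Of all genes, 2.91% were higher in R6/2 x DREAM+/- against R6/2 and 7.19% against wild type. The part of these endothelial markers in the H2 values was not tested. Of 5 choroid plexus markers, Kcne2, a potassium channel subunit, was higher in DREAM+/- against wild type by 1.86 (limma adjusted p = 0.0435) and in R6/2 x DREAM+/- against R6/2 by 2.68 (adjusted p = 0.00257), and the other 4 did not pass. In these comparisons 0.929% and 2.91% of all genes were higher. The mean of the 5 ranged from 8.91 to 10.04 in R6/2 x DREAM+/- arrays, 8.19 to 10.09 in DREAM+/- arrays, 7.20 to 8.90 in R6/2 arrays and 8.42 to 8.93 in wild-type arrays, and its part in the class I values was not tested.

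Markers of cortical projection neurons, whose tissue borders the striatum, also moved. Of 5, 4 were lower in R6/2 against wild type and 4 were higher in R6/2 x DREAM+/- against R6/2, the vesicular glutamate transporter Slc17a7 by -0.92 and by 1.02 (limma adjusted p = 0.00115 and 0.00145). Of all genes, 7.44% were lower in the first comparison and 2.91% higher in the second. Their mean was 8.55 to 8.90 in R6/2 x DREAM+/- arrays, 8.66 to 8.90 in DREAM+/- arrays, 7.79 to 8.30 in R6/2 arrays and 8.57 to 8.84 in wild-type arrays, with R6/2 replicate 1 the lowest. None of the 5 passed in DREAM+/- against wild type, and the part of these markers in the class I values was not tested.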

How the data were processed

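Striatal RNA of 16 mice or pools was measured on 16 arrays, 4 for each genotype. The deposited values are on a log2 scale, and per the submitters' processing notes the authors made them with RMA in the affy package, which corrects background, normalizes between arrays and summarizes the probes of a set. The sources used here do not state versions. No scanner files were used. Genotype and replicate came from the sample titles. The p-values compare each difference with the spread between these samples within genotypes, estimated over all 4 groups.

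The 34945 probe sets with exactly 1 gene symbol were fitted over all 16 arrays with limma 3.58.1 in R 4.3.3 (4 group means, eBayes), without a brightness filter. Benjamini-Hochberg adjusted p-values ran over all of them for each comparison, and an adjusted p under 0.05 is a call. This fit was first tested on simulated data. Controls (64 probe sets), sets with several symbols (932) and sets with none (9160) were left out. The array's annotation was matched to RefSeq by Entrez ID for 99.42% of named sets.

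All 25 probe sets are named. Of the other lists, up to 4 genes with the lowest p per comparison, on the brightest probe set of each gene, could be named, together with defining markers, the 5 probe sets most correlated with each of B2m, H2-D1 and H2-K1, and the checks Kcnip3, Xist, Eif2s3y and Kdm5d. The genes and lists were chosen with earlier results of these data known. Sequences came from RefSeq (GRCm38.p6) and were searched with Biopython 1.88. Alternatives covered brightness filters, normalization, variance model, array weights, a replicate block, covariates and leaving out arrays.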

Additional observations from a re-analysis of the deposited data

Results flagged for a closer look

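In 5 of 100 groups of 4 arrays, 1 array lay far from the other 3 by Dixon's test, a rate that chance alone gives in about 5% of groups. DREAM+/- replicate 1 was the highest of its group for B2m 1449289_a_at, at 10.84 with the next array at 10.61. DREAM+/- replicate 4 was the lowest for H2-D1 1425545_x_at, at 9.21 with the next at 9.37. R6/2 replicate 1 was the highest for H2-D1 1425614_x_at, at 5.49 with the next at 5.28. DREAM+/- replicate 1 was the lowest for the dim Tap1 set 1449803_x_at, at 4.42 with the next at 4.52. R6/2 x DREAM+/- replicate 2 was the lowest for Tap2, at 6.81 with the next at 7.03.

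For H2-K1 1450534_x_at the difference was -0.15 in R6/2 x DREAM+/- against R6/2 and 0.06 in DREAM+/- against wild type. It was singled out because the arrays moved in opposite directions on the R6/2 and the non-transgenic background. The test of the difference between these effects gave -0.20 with limma adjusted p = 0.88, so it did not pass.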

How the results depend on the processing

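The replicate numbers were not used as pairs in the main fit. Arrays of the same number correlated in their deviations at -0.43 to 0.28 (median 0.053, 8 of 24 pairs above 0.1). For arrays of different numbers the range was -0.30 to 0.36 (median -0.0049, 12 of 72 above 0.1). Whether the numbers pair the samples was not tested. With the replicate block, 1 class I probe set was called in DREAM+/- against wild type, against 2 without it. No single class I value past the threshold changed sign under the alternatives run.

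In R6/2 against wild type, 3 of the 25 sets were called, 8 without R6/2 replicate 1 and R6/2 x DREAM+/- replicate 3 together, and 2 to 7 when each array was left out. In DREAM+/- against wild type the count of 2 became 5 with array weights and without those 2 arrays, 1 with Eif2s3y as a covariate, 0 with the microglial covariate, and 1 to 5 with each array left out. In R6/2 x DREAM+/- against R6/2 the count of 3 became 7 with a 40th percentile brightness filter, 5 with quantile normalization, 0 with the microglial covariate, and 1 to 7 with each array left out. In R6/2 x DREAM+/- against DREAM+/- the count of 0 became 1 with 1 probe set per gene, 1 with trend and robust variance, 2 with array weights, 2 without both arrays, and 0 to 2 with each array left out. In R6/2 x DREAM+/- against wild type the count of 10 became 3 (of 8 genes) with 1 probe set per gene, which tests fewer sets, 3 with the microglial covariate, and 8 to 11 with each array left out. The interaction count was 0 to 0 throughout. Apart from the fewer sets tested, the cause was not tested.

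Over all probe sets, DREAM+/- against wild type had 790 calls, 1550 with array weights, 479 with 1 probe set per gene, 508 with Eif2s3y and 423 to 1403 with each array left out. R6/2 x DREAM+/- against R6/2 had 2711, and 1410 to 3971 with each array left out. R6/2 x DREAM+/- against DREAM+/- had 2420, 3741 with array weights and 1372 to 2875 with each array left out. R6/2 x DREAM+/- against wild type had 5454, and 2104 with the microglial covariate. Signals of the 8 dim sets lie near background and limit what can be seen in them.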

Other observations

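Other cell type markers differed with the transgene. Oligodendrocyte markers were lower in 3 of 7 genes in R6/2 against wild type and in 2 of 7 in R6/2 x DREAM+/- against DREAM+/-. In these comparisons 7.44% and 4.71% of all genes were lower. Mal, a myelin protein gene, was lower by -0.50 (limma adjusted p = 8.24e-06) and by -0.45 (adjusted p = 4.56e-05). Astrocyte markers had 1 higher (S100b, 0.44, adjusted p = 0.00143) and 2 lower of 8 in R6/2 against wild type, and Gfap, an intermediate filament of reactive astrocytes, was higher in R6/2 x DREAM+/- against R6/2 by 0.53 (adjusted p = 0.00572). Of all genes, 8.22% were higher and 7.44% lower in the first comparison, and 2.91% were higher in the second. Of 3 blood genes, 0 passed limma in any comparison.

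In R6/2 x DREAM+/- against wild type, the nonclassical genes H2-M3 (0.20) and Hfe (0.40) were higher and H2-Bl (-0.22) lower, and 7 of 14 microglial markers were higher and 2 lower. Among the regulators, Ifngr2 was higher (0.46) and Stat2 lower (-0.21). Of all genes, 7.19% were higher and 9.73% lower in this comparison.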
